A study of Homo sapiens with 6 samples.

Results

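This account follows 10 genes of the dectin-1 and Toll-like receptor pathways in LNCaP, an androgen-responsive line from human prostate cancer. The genes were chosen by name for their place in the pathways, with earlier results of these data known. They are CLEC7A, SYK, CARD9, TLR2, TLR3, TLR4, TLR5, TLR6, MYD88 and TICAM1, and all 10 were found among the 23354 genes of the deposited table. RNA was sequenced from 3 libraries labelled 1nM DHT and 3 labelled 1nM DHT+WBM. DHT is dihydrotestosterone, a potent androgen, and WBM is an extract of white button mushroom given at 3 µL/mL. Cells of both groups had DHT at 1 nM for 48 h, and by their labels the groups differ in the extract. The labels name neither a vehicle nor separate cultures for the triplicates. The p-values therefore capture library-to-library spread alone, and that spread may be technical.

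Dectin-1, the product of CLEC7A, is a C-type lectin receptor that binds the beta-glucans of fungal cell walls and is best known from macrophages, dendritic cells and neutrophils. When it is engaged, a tyrosine motif in its tail recruits the kinase SYK, and CARD9 with BCL10 and MALT1 then carries the signal to NF-kB. Toll-like receptors sense microbial products at the cell surface or in endosomes and signal through the adaptor MYD88 or, for TLR3 and internalised TLR4, through TICAM1, also called TRIF. TLR2 works in pairs with TLR1 or TLR6 and senses lipoproteins, and it can act beside dectin-1 on fungal particles. Epithelial cells express some of these receptors as well.

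Sequence at or just upstream of the start of 4 members is shown first, because these stretches hold the letters of binding motifs for NF-kB or interferon regulatory factors. RefSeq promoter windows on GRCh38.p14, from 250 bases before a gene's start to 50 after it, were found for 9 of the 10 members. CLEC7A had none in the table used. The 250 bases before the start are given for TLR2, TICAM1 and MYD88, 5′ to 3′ on the gene's strand, at chr4:153684030-153684279 (plus), chr19:4831713-4831962 (minus) and chr3:38138411-38138660 (plus). For TLR3 only 30 bases around its match are given, at chr4:186069142-186069171 (plus), and both the match and these bases span the start of the gene. Capitals mark GGACTTTCC, a core of classical kB sites, in TLR2 and TICAM1, and a pair of GAAA repeats 2 bases apart on either strand, the core of the interferon-stimulated response element, in MYD88 and TLR3.
TLR2: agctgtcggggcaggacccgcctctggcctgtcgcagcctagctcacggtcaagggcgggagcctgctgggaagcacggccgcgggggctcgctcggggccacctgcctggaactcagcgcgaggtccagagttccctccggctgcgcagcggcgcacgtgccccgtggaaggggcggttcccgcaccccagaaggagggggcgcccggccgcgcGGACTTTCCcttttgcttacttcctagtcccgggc
TICAM1: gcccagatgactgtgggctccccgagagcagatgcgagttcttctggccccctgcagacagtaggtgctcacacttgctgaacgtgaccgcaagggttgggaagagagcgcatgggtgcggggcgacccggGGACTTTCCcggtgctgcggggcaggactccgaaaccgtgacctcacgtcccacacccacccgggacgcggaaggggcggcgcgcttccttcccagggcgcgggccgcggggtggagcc
MYD88: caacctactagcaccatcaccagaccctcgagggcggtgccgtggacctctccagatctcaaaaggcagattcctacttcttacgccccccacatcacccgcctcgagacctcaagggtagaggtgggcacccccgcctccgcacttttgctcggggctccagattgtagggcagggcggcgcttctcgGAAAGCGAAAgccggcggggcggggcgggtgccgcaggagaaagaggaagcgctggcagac
TLR3: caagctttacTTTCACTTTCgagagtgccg

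Both strands of the whole 300-base windows were searched, and a match is a description of letters, not of a bound site. GGACTTTCC was present in 0.37% of 35116 windows and in those of TLR2 and TICAM1 among the members. The spaced GAAA pair was present in 3.57% of all windows and in those of MYD88 and TLR3. A 10-base NF-kB consensus with variable positions, which overlaps the kB core in TICAM1, was present in 11.3% of windows and in those of TICAM1 and CARD9. The TLR2 window, which holds the kB core, did not match this consensus. The PU.1 core GAGGAA was present in 27.9% of windows and in those of 5 members, CARD9, MYD88, SYK, TLR4 and TLR6. The AP-1 site TGANTCA, at 7.71% of windows, was in none of the members' windows. The antioxidant response element core TGACNNNGC, at 13.3%, was in those of SYK and TLR4, and the xenobiotic response element core GCGTG, at 36.5%, in those of CARD9, TLR4 and TLR5. The motifs were chosen after the values of the members had been seen.

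The libraries held 19127357 to 21490953 counts. Levels are given as CPM, a read count scaled to library size with TMM factors, and, where genes are set against each other, as RPKM, the same CPM per kilobase of the deposited gene length. The test was edgeR's quasi-likelihood F-test over 13466 genes with sufficient counts, with Benjamini-Hochberg adjustment, and genes with an adjusted p under 0.05 are called higher or lower. All 10 prostate luminal markers listed, KLK3 among them, had enough counts for the test. Their summed levels were 5683 to 5906 CPM in DHT and 3639 to 3722 CPM in DHT+WBM. Of the 10, 6 were called lower, 1 higher and 3 not called, while 29.0% of all tested genes were called lower. Their median log2 fold change, DHT+WBM over DHT, was -0.44. The part of these differences in the results was not tested. TYROBP, the myeloid signalling adaptor gene, had 0 counts in all 6 libraries, and PTPRC, the pan-leukocyte gene, and CD14 had 0 or 1 count in each. Other myeloid markers were present. Of 15 listed, 3 were tested, CD68, ITGAM and LYZ, and all 3 were called higher in DHT+WBM, against 29.2% of all tested genes. Their values are given further below.

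With the extract, transcripts of dectin-1 and of 3 of the 4 tested Toll-like receptors on the list were about 2-fold higher, while MYD88, the adaptor most of these receptors share, was lower. CLEC7A, TLR2, TLR5 and TLR6 rose between 1.97-fold and 2.21-fold, and MYD88 fell 1.38-fold. TLR3 and TICAM1 rose by small amounts that some reanalyses did not call, SYK was not called, and CARD9 and TLR4 had too few counts for the test. Of the 8 tested members 6 were higher, 1 was lower and 1 was not called. Over all tested genes 58.2% were called, 29.2% higher and 29.0% lower, and 8.08% were called higher by at least 1.5-fold. In 6 of the 8 the libraries of the groups did not overlap, against 62.2% of all tested genes. The median log2 fold change, DHT+WBM over DHT, was 0.61 over the 8 tested members and 0.0029 over all tested genes. The members were chosen with earlier results of these data known, so these contrasts are descriptions. In bulk RNA a change in every cell and a change in the share of cells that express a gene cannot be told apart.

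**Figure D1:**
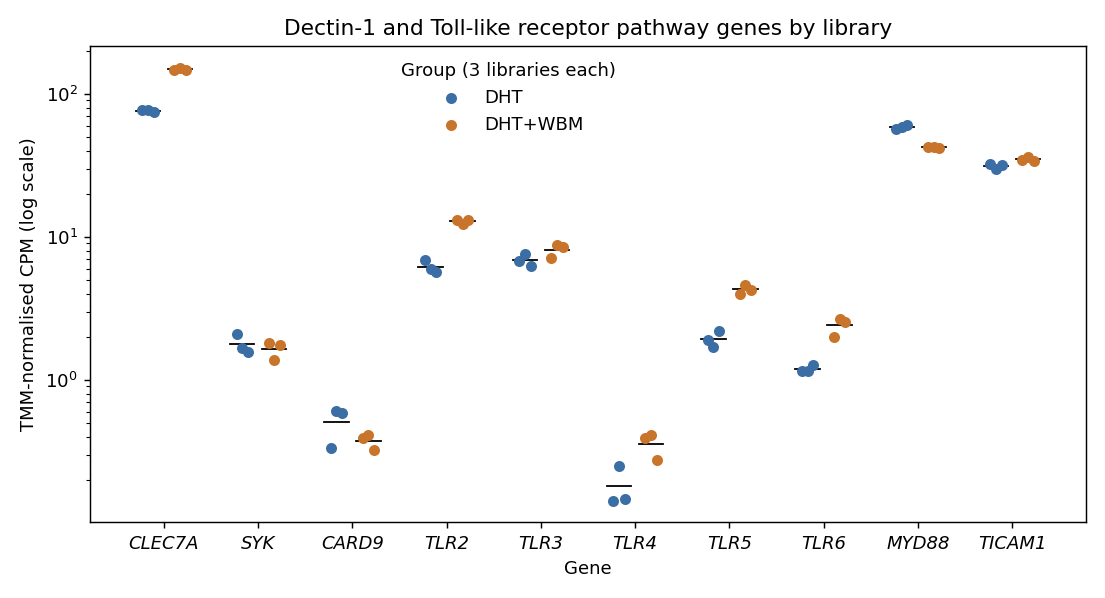
TMM-normalised CPM (log axis) of the 10 genes in each library, with a line at each group's mean. The groups are apart for CLEC7A, TLR2, TLR5 and TLR6, where DHT+WBM is higher, and for MYD88, where it is lower. They are also apart for TICAM1 and for TLR4, on few counts, and they overlap for SYK, CARD9 and TLR3.

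CLEC7A (chromosome 12, 10269376 to 10282868, minus strand, hg19) was at 76.7, 76.7 and 74.1 CPM in DHT replicates 1 to 3 and at 148, 153 and 147 CPM in DHT+WBM replicates 1 to 3. Every DHT+WBM library was far above every DHT library, and the spread within each group was small beside the gap. The means were 75.8 ± 1.47 and 149 ± 2.92 CPM (SD, n = 3), or 0.98 ± 0.04 as a log2 difference (SE), with adjusted p = 9.74e-22 in edgeR. Per kilobase it was the most abundant of the 10 genes in both groups, at 26.1 ± 0.50 RPKM in DHT and 51.4 ± 1.00 RPKM in DHT+WBM. Its counts, 1520 to 3203 per library, were also the deepest of the members.

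The kinase and the adaptor that carry the dectin-1 signal were rare in the same libraries. SYK (chromosome 9, 93564012 to 93660842, plus strand) was at 2.10, 1.66 and 1.56 CPM in DHT and at 1.80, 1.39 and 1.75 CPM in DHT+WBM. The groups overlapped, and the log2 fold change was -0.10 ± 0.21 (SE), with adjusted p = 0.684 in edgeR. Per kilobase SYK was at 0.33 ± 0.05 RPKM in DHT and 0.31 ± 0.04 RPKM in DHT+WBM. The ratio of CLEC7A to SYK within a library, in RPKM, was 67.0, 84.7 and 87.2 in DHT and 150, 202 and 155 in DHT+WBM. The ratio does not depend on library scaling, and its groups did not overlap (two-sided exact permutation p = 0.10, the smallest that 3 against 3 libraries allow).

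CARD9 (chromosome 9, 139257441 to 139268133, minus strand) had 7, 12 and 12 counts in DHT and 8, 8 and 7 in DHT+WBM, too few for the filter. With no low-count filter its log2 fold change was -0.45 (adjusted p = 0.454 in edgeR). No difference was detected on these counts. CARD9 also shares 823 bases with DNLZ, a gene on the same strand with levels of 7.64 ± 0.46 CPM in DHT and 6.99 ± 1.34 CPM in DHT+WBM, so some reads could be credited to the wrong gene of this pair. CLEC7A lies inside the annotated span of MIR1244-1, which had 1 count in all libraries together. No other member overlapped a gene of the table.

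Among the Toll-like receptors of the list, TLR2 (chromosome 4, 154605441 to 154627242, plus strand), the receptor for lipoproteins, was at 6.88, 5.99 and 5.66 CPM in DHT and at 13.2, 12.3 and 13.1 CPM in DHT+WBM. All DHT+WBM libraries were above all DHT libraries. The log2 fold change was 1.06 ± 0.10 (SE), with adjusted p = 4.44e-12 in edgeR. TLR6 (chromosome 4, 38825329 to 38858438, minus strand), a partner of TLR2 in sensing diacylated lipoproteins, was at 1.15, 1.16 and 1.27 CPM in DHT and 2.0, 2.67 and 2.53 CPM in DHT+WBM. It rested on 23 to 55 counts per library, and the groups were again apart, at 1.01 ± 0.21 (SE) on the log2 scale, with adjusted p = 7.39e-05 in edgeR.

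TLR5 (chromosome 1, 223282748 to 223316624, minus strand), the flagellin receptor, had the largest fitted change of the 8 tested members. It was at 1.91, 1.71 and 2.19 CPM in DHT and at 4.0, 4.62 and 4.28 CPM in DHT+WBM. No DHT+WBM library was near a DHT library, and the log2 fold change was 1.14 ± 0.16 (SE), with adjusted p = 1.01e-07 in edgeR. TLR4 (chromosome 9, 120466453 to 120479769, plus strand), the lipopolysaccharide receptor, had 3, 5 and 3 counts in DHT and 8, 8 and 6 in DHT+WBM. Its libraries did not overlap, but the counts were under the filter, and with no low-count filter the log2 fold change of 0.96 was not called (adjusted p = 0.188 in edgeR).

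TLR3 (chromosome 4, 186990309 to 187006252, plus strand), an endosomal receptor for double-stranded RNA, changed less. It was at 6.78, 7.55 and 6.24 CPM in DHT and at 7.17, 8.73 and 8.52 CPM in DHT+WBM. DHT+WBM replicate 1 lay below DHT replicate 2, so the groups overlapped. The log2 fold change of 0.25 ± 0.11 (SE) was at the edge of the threshold (adjusted p = 0.0454 in edgeR). The call was lost without DHT replicate 1 (log2 fold change 0.24, adjusted p = 0.0937 in edgeR), DHT replicate 3 (0.18, adjusted p = 0.183 in edgeR), DHT+WBM replicate 2 (0.19, adjusted p = 0.176 in edgeR) or DHT+WBM replicate 3 (0.20, adjusted p = 0.163 in edgeR). It was lost in DESeq2 too (0.25, adjusted p = 0.152), in limma-voom (0.25, adjusted p = 0.0543) and in edgeR with no low-count filter (0.24, adjusted p = 0.0548).

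**Figure D2:**
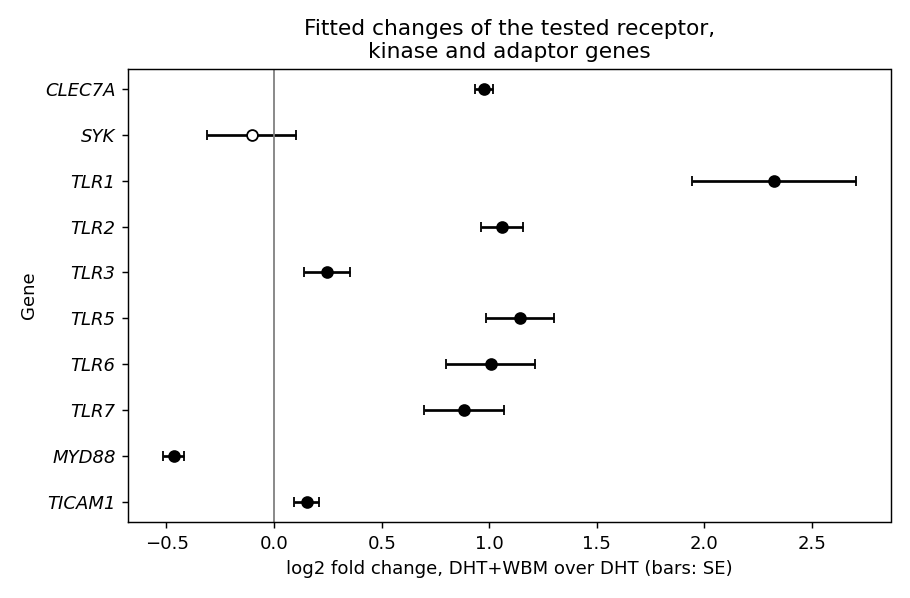
Fitted log2 fold changes (DHT+WBM over DHT) with standard errors for the 8 tested members and for TLR1 and TLR7. Filled points have an adjusted p under 0.05 and the open point does not. TLR2, TLR5 and TLR6 sit near 1 with CLEC7A, TLR3 and TICAM1 sit just above 0, and MYD88 sits at -0.47.

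The adaptors changed in opposite directions, and their levels came closer. MYD88 (chromosome 3, 38179969 to 38184512, plus strand), which links most Toll-like receptors and the interleukin-1 receptor family to the IRAK kinases, was at 57.0, 58.4 and 60.2 CPM in DHT and at 42.4, 42.8 and 41.9 CPM in DHT+WBM. Every DHT+WBM library was below every DHT library, at -0.47 ± 0.05 (SE) on the log2 scale, with adjusted p = 2.63e-10 in edgeR. TICAM1 (chromosome 19, 4815936 to 4831754, minus strand), the adaptor of TLR3, was at 32.2, 30.1 and 31.8 CPM in DHT and at 34.4, 36.3 and 33.9 CPM in DHT+WBM. The groups did not overlap, but the gap was narrow, and the log2 fold change was 0.15 ± 0.06 (SE), with adjusted p = 0.0238 in edgeR.

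The TICAM1 call was lost without DHT replicate 2 (log2 fold change 0.12, adjusted p = 0.0864 in edgeR), DHT+WBM replicate 1 (0.15, adjusted p = 0.0540 in edgeR) or DHT+WBM replicate 2 (0.12, adjusted p = 0.139 in edgeR), and in DESeq2 (0.15, adjusted p = 0.0731). The ratio of TICAM1 to MYD88 within a library, in RPKM, was 0.677, 0.616 and 0.632 in DHT and 0.972, 1.01 and 0.970 in DHT+WBM. The ratios of the groups did not overlap (two-sided exact permutation p = 0.10, the smallest possible). The transcripts of both adaptors thus stood at nearly equal levels per kilobase with the extract, 13.0 ± 0.14 RPKM for MYD88 and 12.8 ± 0.45 RPKM for TICAM1, and their libraries overlapped. Without it MYD88 was at 18.0 ± 0.49 RPKM and TICAM1 at 11.5 ± 0.43 RPKM.

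Ranked per kilobase in DHT, CLEC7A was followed by MYD88, TICAM1, TLR3, TLR2, TLR5, SYK, TLR6, CARD9 and TLR4. Neighbours in this order overlapped between libraries for TLR3 and TLR2, at 2.05 ± 0.20 and 1.81 ± 0.18 RPKM, and for TLR5 and SYK, at 0.45 ± 0.06 and 0.33 ± 0.05 RPKM. In DHT+WBM TLR2 stood above TLR3, at 3.77 ± 0.15 against 2.44 ± 0.25 RPKM, and TLR6 stood above SYK, at 0.41 ± 0.06 against 0.31 ± 0.04 RPKM. TLR5 was then at 0.99 ± 0.07 RPKM, and TLR4 was last in both groups, at 0.03 ± 0.01 RPKM in DHT and 0.06 ± 0.01 RPKM in DHT+WBM. In DHT+WBM the libraries of MYD88 and TICAM1 overlapped, and no other neighbours in the order did.

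The rest of the Toll-like receptor family was looked up as well. Of 10 family genes that were listed, 6 were tested, and all 6 were higher in DHT+WBM by edgeR, as were 29.2% of all tested genes. TLR2, TLR3, TLR5 and TLR6 are members already counted above, TLR3 with the weak support given there. The lookup thus added TLR1 and TLR7. All 6 kept that sign in every reanalysis that tested them. TLR1 passed the low-count filter only through its DHT+WBM libraries, so the count of 6 is partly set by the filter. TLR1, the other partner of TLR2, had 7, 3 and 3 counts in DHT and 24, 17 and 26 in DHT+WBM, or 2.32 ± 0.38 as a log2 difference (SE), with adjusted p = 2.17e-06 in edgeR. TLR7, an endosomal receptor for single-stranded RNA, rose from 1.63 ± 0.42 to 3.01 ± 0.19 CPM, or 0.88 ± 0.19 as a log2 difference (SE).

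TLR1 and TLR6 are close relatives with similar sequence, so reads can be credited to the wrong one. Their counts were therefore summed, a check added after the data had been seen. The sum was 31, 26 and 29 counts in DHT and 65, 69 and 81 in DHT+WBM, a 2.48-fold difference in mean CPM with no overlap. TLR8 had 0 counts in all libraries. For scale, 3 counts, a level set by choice and not estimated, would be 0.138 to 0.154 CPM per library. TLR9 and TLR10 had mean levels of at most 0.10 CPM.

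CLEC7A lies in a cluster of C-type lectin genes on chromosome 12 that are mostly active in blood cells. Of the 11 other genes within 250 kb on each side, 8 had 10 or fewer counts over all 6 libraries together. The nearest gene on one side, CLEC1A, was at 0.44 ± 0.19 CPM in DHT and 0.59 ± 0.08 CPM in DHT+WBM and was not called (log2 fold change 0.40, adjusted p = 0.366 in edgeR). The nearest on the other, OLR1, had 1 count in all. CLEC2A, which encodes a ligand of a natural killer cell receptor, was the only other lectin gene of the window that was called, going from 0.996 ± 0.10 to 2.82 ± 0.47 CPM, or 1.5 ± 0.21 as a log2 difference (SE), with adjusted p = 1.28e-07 in edgeR. GABARAPL1, an autophagy gene 82.6 kb from the CLEC7A start, rose from 68.6 ± 3.05 to 86.5 ± 2.95 CPM, or 0.33 ± 0.05 as a log2 difference (SE).

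**Figure D3:**
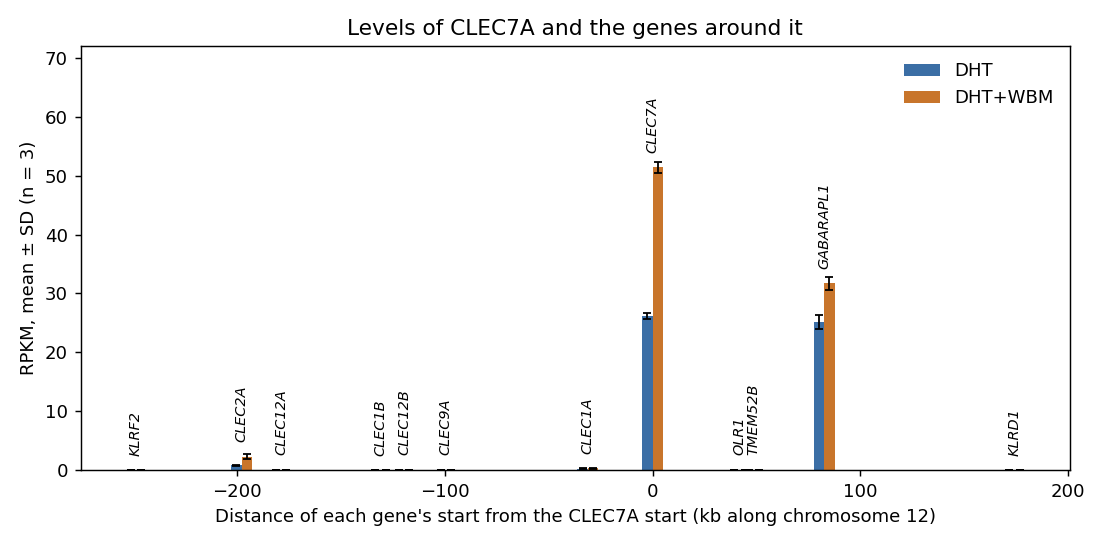
Mean RPKM ± SD (n = 3) of CLEC7A and the 11 genes within 250 kb, placed by the distance of each gene's start from that of CLEC7A. CLEC7A and GABARAPL1 carry nearly all of the signal, and the other genes between and beside them stand at or near 0.

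Across the genome the C-type lectin family was mostly at or near 0. Of 23 other lectin receptor and related genes listed, 4 were tested, 2 were higher and 0 lower, and 10 had no count in any library, among them CLEC4E, CLEC6A and CD209, which encode Mincle, dectin-2 and DC-SIGN. CLEC16A, a regulator of mitophagy that carries the family name, rose from 36.4 ± 1.24 to 41.9 ± 1.25 CPM. CLEC2D, a ligand of a natural killer cell receptor, was not called, at 0.25 on the log2 scale (adjusted p = 0.295 in edgeR). Of 8 genes for other beta-glucan binding proteins or their lipid ligand, 6 were tested, 4 were higher and 0 lower. The share called was 50% of the tested lectin genes and 66.7% of these, near the 58.2% of all tested genes.

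EPHA2, a receptor tyrosine kinase that epithelial cells use to sense fungal beta-glucan, rose from 7.68 ± 0.43 to 10.2 ± 0.29 CPM. B4GALT6, an enzyme that makes lactosylceramide, rose from 16.6 ± 0.98 to 20.3 ± 1.48 CPM. Its relative B4GALT5, on the same list, was far more abundant, at 188 ± 11.9 CPM in DHT and 194 ± 3.55 CPM in DHT+WBM. The groups overlapped for B4GALT5, and it was not called (adjusted p = 0.414 in edgeR). ITGAM, the alpha chain of complement receptor 3, rose from 0.64 ± 0.04 to 1.41 ± 0.13 CPM, while its beta chain ITGB2 was not called, at -0.29 on the log2 scale (adjusted p = 0.284 in edgeR). CD36, a scavenger receptor gene with a log2 fold change of 0.95 (adjusted p = 0.0310 in edgeR), lost its call without DHT replicate 1 (0.87, adjusted p = 0.0855 in edgeR), DHT replicate 2 (0.74, adjusted p = 0.125 in edgeR), DHT+WBM replicate 1 (0.68, adjusted p = 0.201 in edgeR) or DHT+WBM replicate 2 (0.91, adjusted p = 0.0722 in edgeR).

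Markers of myeloid cells, which carry dectin-1 in blood and tissue, were checked beside these rises. Of 15 markers 3 were tested, and CD68, ITGAM and LYZ were all called higher. FCER1G, under the filter, went the other way, with 5, 2 and 3 counts in DHT and 1, 0 and 0 in DHT+WBM. With no low-count filter 13 markers entered the edgeR fit, and 4 were called higher and 1 lower. The summed level of the list was 25.4 to 27.8 CPM in DHT and 87.0 to 94.5 CPM in DHT+WBM. CD68, a lysosomal protein gene that is not restricted to macrophages, made up most of it, rising from 23.0 ± 1.15 to 84.5 ± 4.61 CPM, and the other 14 summed to 3.36 to 4.06 CPM in DHT and 4.88 to 6.43 CPM in DHT+WBM. TYROBP and FCGR3A were at 0 in all libraries. LYZ had a log2 fold change of 0.45 (adjusted p = 0.0302 in edgeR) and lost its call without DHT replicate 2 (0.45, adjusted p = 0.0567 in edgeR), DHT replicate 3 (0.39, adjusted p = 0.0893 in edgeR) or DHT+WBM replicate 1 (0.28, adjusted p = 0.237 in edgeR). The part of CD68 and LYZ in the rises of the receptor genes was not tested. None of 7 lymphoid markers had enough counts for the test, and 0 of 3 tested stromal and endothelial markers were called.

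The genes that act between the receptors and NF-kB were taken from lists. The background for each is the share of all tested genes called, 58.2%, with 29.2% higher and 29.0% lower. Of 7 listed relatives of SYK and receptor or adaptor genes, such as FCER1G, TYROBP and ZAP70, 0 had enough counts for the test. With no low-count filter 5 of them entered the edgeR fit, and 0 were called higher and 1 lower. Below SYK, 26 of 35 dectin-1 signalling genes were tested, of which 13 were higher, 3 lower and 10 not called, and the list median was 0.10 (log2). MALT1, the paracaspase of the CARD9 complex, rose from 247 ± 6.81 to 395 ± 10.0 CPM, or 0.68 ± 0.04 as a log2 difference (SE), with adjusted p = 5.20e-18 in edgeR. Its partner BCL10 was not called, at 49.3 CPM in DHT and 51.1 CPM in DHT+WBM (adjusted p = 0.415 in edgeR).

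MAP3K14, the NIK kinase of the noncanonical NF-kB route, rose 1.47-fold to 9.92 ± 0.08 CPM, and VAV3, a guanine exchange factor gene, rose 2.07-fold to 2.21 ± 0.24 CPM. PPP3CA, a calcineurin subunit gene, fell from 965 ± 32.1 to 782 ± 21.4 CPM. VAV2, a relative of VAV3, was lower, at -0.15 on the log2 scale (adjusted p = 0.00882 in edgeR), a call lost when only library totals were used for scaling (-0.11, adjusted p = 0.0667 in edgeR).

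Among Toll-like receptor adaptors, kinases and ubiquitin ligases 26 of 27 genes were tested, of which 12 were higher, 4 lower and 10 not called, and the list median was 0.12 (log2). IRAK2 and IRAK1, kinases that MYD88 recruits, rose, IRAK2 from 10.9 ± 0.80 to 20.5 ± 0.65 CPM and IRAK1 from 263 ± 14.3 to 341 ± 5.78 CPM. IRAK4, the kinase that binds MYD88 first, was not called, at 0.06 on the log2 scale (adjusted p = 0.421 in edgeR). IRF5, a transcription factor activated through MYD88, rose 1.67-fold to 16.4 ± 0.84 CPM. SARM1, an adaptor with a Toll/interleukin-1 receptor domain that is known as an NAD-cleaving enzyme, fell from 51.2 ± 2.48 to 36.8 ± 0.37 CPM, and UBE2N, a ubiquitin-conjugating enzyme gene, fell 1.15-fold. TICAM2, the bridging adaptor of TLR4, was not tested, with mean levels of at most 0.016 CPM.

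The genes that fold, carry or assist Toll-like receptors split, with 5 of 14 tested higher, 6 lower and 3 not called, and the list median was -0.02 (log2). Without DHT replicate 1 the number lower was 3, and it was 3 with library totals alone, where the median was 0.026 (0.011 with upper-quartile factors). HSP90B1, the endoplasmic reticulum chaperone gp96 that most Toll-like receptors need for folding, fell from 2360 ± 94.1 to 1416 ± 53.9 CPM, or -0.74 ± 0.04 as a log2 difference (SE), with adjusted p = 8.40e-19 in edgeR. TMED7, a cargo protein gene of the secretory pathway, fell 1.28-fold. The cathepsin genes CTSS and CTSB, whose proteases act in lysosomes, rose 2.09-fold and 1.31-fold. LY96, which encodes MD-2, the co-receptor of TLR4, is named after its values were seen, and it rose from 0.39 ± 0.14 to 1.58 ± 0.35 CPM on 5 to 42 counts per library. It passed the low-count filter only through its DHT+WBM libraries.

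Negative regulators were mostly higher. Of 16 tested 13 were higher, 1 lower and 2 not called, and the list median was 0.32 (log2). Over all tested genes 29.2% were called higher and 29.0% lower. TNFAIP3 and CYLD, deubiquitinases that limit NF-kB signalling, rose 2.09-fold and 1.49-fold. ATF3, a repressor of Toll-like receptor targets that also responds to stress, rose 1.84-fold, and NLRX1, a mitochondrial regulator gene, rose 1.35-fold. OTUD7B, another deubiquitinase gene, fell from 97.2 ± 3.55 to 83.0 ± 2.24 CPM. Of 5 tested genes of the interleukin-1 receptor family and its ligands, which also signal through MYD88, 3 were higher and 1 was lower, and the list median was 0.34 (log2). IL1RN, the receptor antagonist gene, and IL18R1 rose 1.87-fold and 1.84-fold, and IL1R1 rose from 77.8 ± 4.72 to 98.1 ± 1.70 CPM. IL1RAP, the shared co-receptor, was lower, at -0.18 on the log2 scale (adjusted p = 0.0160 in edgeR), a call lost without DHT replicate 1 (-0.13, adjusted p = 0.12 in edgeR) or DHT+WBM replicate 1 (-0.17, adjusted p = 0.0577 in edgeR).

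Genes that dectin-1 or Toll-like receptor signalling is known to induce were mostly higher or too rare to test. Of 25 listed 13 were tested, of which 9 were higher, 3 lower and 1 not called, and the list median was 0.44 (log2). The shares over all tested genes were 29.2% higher and 29.0% lower. CXCL8, a neutrophil chemokine gene, rose from 6.54 ± 0.98 to 16.5 ± 1.10 CPM, and TNF and ICAM1 rose 3.70-fold and 1.77-fold. CXCL10, which TICAM1 and interferons induce, fell from 51.1 ± 7.11 to 30.5 ± 2.47 CPM. CCL2 was lower, at -0.24 on the log2 scale (adjusted p = 0.0123 in edgeR), a call lost without DHT replicate 2 (-0.18, adjusted p = 0.0771 in edgeR) or DHT+WBM replicate 2 (-0.21, adjusted p = 0.0525 in edgeR). Without DHT replicate 2 only 1 gene of this list was lower. Of the genes counted, CXCL2, called higher, and EGR3, called lower, passed the low-count filter only through the group where each is high, so these counts are partly set by the filter. The EGR3 call (log2 fold change -0.95, adjusted p = 0.0457 in edgeR) was lost in DESeq2 (-0.96, adjusted p = 0.172). It was also lost in edgeR with no low-count filter (-0.96, adjusted p = 0.0717). With 1 library left out, it held only without DHT+WBM replicate 2 (-1.25, adjusted p = 0.0322 in edgeR). IL1B, IL6, IL10, IL12B and IFNB1 had mean levels of at most 0.07 CPM.

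**Figure D4:**
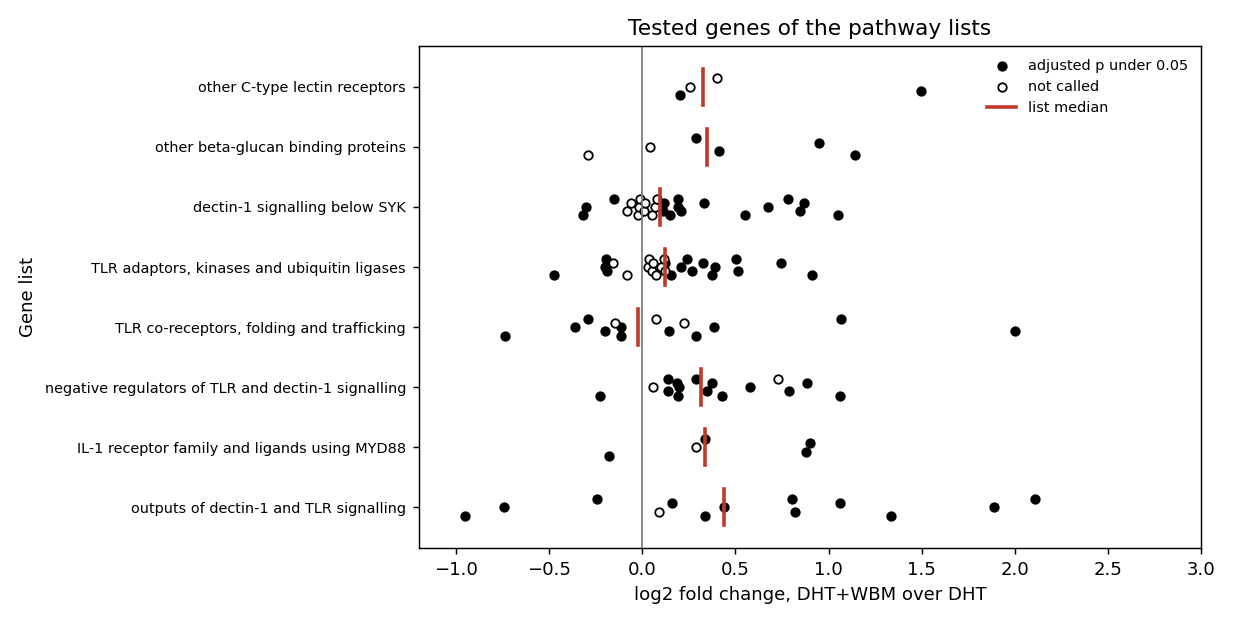
Log2 fold changes (DHT+WBM over DHT) of the tested genes in 8 pathway lists. Filled points have an adjusted p under 0.05, open points do not, and the red line is each list's median. Negative regulators and induced genes lie mostly above 0, with medians of 0.32 and 0.44, and the co-receptor, folding and trafficking genes lie on both sides of it.

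Together the lists, leaving out the 10 members and the cell type markers, held 111 tested genes, of which 62 were higher and 18 lower, or 72.1% called. Over all tested genes 58.2% were called, 29.2% higher and 29.0% lower. The lists were chosen with earlier results of these data known, so this contrast is a description. TLR1, LY96, CXCL2 and EGR3 are among the 111, and each passed the low-count filter only through the group where it is high. The gene whose pattern over the 6 libraries was most like that of CLEC7A, by the root-mean-square distance of centred log2 CPM among 9621 genes with a mean of at least 10 CPM, was MAP3K10, a mixed-lineage kinase gene, at a distance of 0.0081 on that scale. RIMS3, TUBB4A, PAM and SIPA1L2 followed at 0.038 to 0.041. The 6 libraries fall in 2 groups and share their depth, so the likeness is a description.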

How the data were processed

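RNA sequencing covered 6 LNCaP libraries, grouped by their titles. The deposited values are unnormalised counts of reads for each gene, listed with gene positions and lengths. The submitters' processing notes name bcl2fastq 2.18.0.12, STAR 2.6.0, HTSeq 0.6.0, edgeR 3.28.1 and hg19, with no role or order. Annotation, strand setting and filters were each not given in the sources used here. These positions are the table's, read as hg19. Promoter windows are RefSeq sequence on GRCh38.p14 and were not joined to hg19 positions.

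Counts were fitted in R 4.3.3 with edgeR 4.0.16 as DHT+WBM against DHT with no covariate. Genes were kept by filterByExpr (minimum count 10 in 3 libraries, minimum total 15), which left 13466, and TMM factors were 0.979 to 1.02. The test was two-sided and p-values were adjusted over all tested genes. Fold values are from the fit. On simulated counts the fit called 80.6% of genes changed by 0.5 on the log2 scale, 98.0% of those changed by 1 and 0.076% of unchanged genes, among 13364 genes. The simulation gave every gene and both groups the same biological coefficient of variation, 3.39%. It changed only 98 and 99 of the tested genes by these amounts, while 58.2% were called in the data. These rates therefore need not hold for the data. DESeq2 1.42.0 and limma 3.58.1 served as alternatives, with other scalings, filters, a replicate block, a threshold of 0.01 and each library left out. The pathway lists were also run under these settings, a choice made after the data were seen.

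The members and lists were chosen with earlier results of these data known. Named genes were the 10 members, tested Toll-like and lectin receptor genes, up to 4 called genes with the smallest adjusted p in each other list and up to 2 called against its direction, genes overlapping a member, the neighbours of CLEC7A and the 5 genes nearest to it in pattern. Other genes were named after their values were seen.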

Additional observations from a re-analysis of the deposited data

How the results depend on the processing

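The calls of CLEC7A, TLR2, TLR5, TLR6 and MYD88 held in direction and threshold under every alternative run. The number of members called higher was 6 and ranged from 4 to 6, with TLR3 and TICAM1 as the members lost, and it was 4 to 5 with 1 library left out. The number called lower was 1 throughout. SYK was not called in any setting. With 1 library left out its log2 difference ran from -0.19 to 0.036, and the sign turned without DHT replicate 1 (edgeR adjusted p = 0.912). Over all genes, with 1 library left out, 3440 to 3791 were higher and 3642 to 3789 lower. In the pathway lists 18 genes were lower, against 11 with library totals only, 11 with DESeq2 and 10 at an adjusted p under 0.01. With 1 library left out 11 to 18 were lower and 54 to 59 higher. The cause was not tested. DESeq2 did not call CD36 (adjusted p = 0.125), LYZ (0.125), EGR3 (0.172), IL1RAP (0.0551) or CCL2 (0.0545). No gene of the members or lists that was called changed sign under any alternative.

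Replicate numbers are shared by the groups, but same-numbered libraries deviated together with correlations of only 0.050, 0.037 and 0.019, so they were not treated as pairs. With the replicate block 4079 genes were higher and 4030 lower, and 6 members were higher and 1 lower. Depth limits CARD9, TLR4, TLR8, TLR9 and TLR10, which had too few counts for the test.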
